A study of Mus musculus with 12 samples.

Results

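The MYC network is a set of basic helix-loop-helix leucine zipper proteins that pair with one another to bind DNA. It was followed here through 9 genes: Myc, Mycn, Max, Mxd1, Mxd3, Mxd4, Mxi1, Mnt and Mlx. All probe sets that the platform annotation assigns to one of these symbols were taken, which gave 9 of the 18193 genes measured and 21 of the 45037 probe sets on the array. Mxd4 had 4 of them, Mycn, Mxd1 and Mxd3 had 3 each, Mxi1, Mnt and Mlx had 2 each, and Myc and Max had 1 each. None of the 21 carried a second symbol, and none was left out for a low level, although 3 had a mean intensity under 50.

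The cells were pre-pro-B progenitors of C57BL/6 mice that lack the transcription factor EBF1 (Ebf1-/-) and stall before B cell commitment. Samples of 4 groups were hybridised to one-colour Affymetrix arrays, 3 arrays a group: Ebf1-/- cells given a retrovirus with EBF1 and GFP and their controls in set 1, and Ebf1-/- cells given a retrovirus with PAX5 and GFP and their controls in set 2. Control cells of both sets carried the MigR1 virus, which encodes GFP alone, so every group shares the loss of Ebf1, the infection and the sort. All cells grew on OP9, a mouse stromal cell line, in 4% serum with Flt3 ligand and SCF (10 ng/ml each) and interleukin-7 (5 ng/ml), and GFP-positive cells were sorted 2 days after infection. The labels give no age of the mice. Nor do they tell if the arrays of a group go back to separate animals or cultures, and a p-value here therefore speaks only of array-to-array spread, possibly technical.

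MYC and MYCN, its close relative, each pair with MAX and activate genes at E-box sequences, above all genes for ribosome assembly, metabolism and cell division. MXD1, MXD3, MXD4, MXI1 and MNT compete for MAX and recruit repressors to the same sites, and MLX is a MAX-like partner that also joins glucose-sensing proteins. In early B cells, MYC family proteins are known for driving the growth of progenitors under interleukin-7, and Myc and Mycn can stand in for each other in part. The comparisons asked which of these transcripts differ when EBF1, or PAX5 in its place, is given to cells without EBF1.

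The MYC-type E-box is shown first, because network proteins bind it and because some genes of the network hold it in their own promoters. Promoter windows of 300 bases, 250 before and 50 after the start site, were taken from RefSeq (GRCm38.p6). They covered 8 of the 9 members in 10 windows, and Myc had no entry. The E-box CACGTG, which reads the same on both strands, occurred in 4 of the 10 windows, those of Max, Mlx, Mnt and Mxd4. It occurred in 2349 of all 32851 windows, or 7.15%. The stretches of 40 bases around it follow, with the E-box in capitals, 5′ to 3′ on the strand of the gene. In Max (chr12:76962229-76962268, minus strand) the E-box begins 3 bases before the start site, in Mlx (chr11:101087233-101087272, plus strand) 40 before, in Mnt (chr11:74830784-74830823, plus strand) 123 before, and in Mxd4 (chr5:34187907-34187946, minus strand) 219 before.
Max: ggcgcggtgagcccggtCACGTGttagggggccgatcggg
Mlx: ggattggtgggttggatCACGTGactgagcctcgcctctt
Mnt: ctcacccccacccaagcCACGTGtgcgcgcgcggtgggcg
Mxd4: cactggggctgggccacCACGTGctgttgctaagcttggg

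Mycn, which has the lowest log2 change among the members with EBF1, holds no CACGTG in its window. A missing match says only that these letters are not in the window. The 250 bases before the Mycn start site (chr12:12941837-12942086, minus strand) are printed for reference.
Mycn: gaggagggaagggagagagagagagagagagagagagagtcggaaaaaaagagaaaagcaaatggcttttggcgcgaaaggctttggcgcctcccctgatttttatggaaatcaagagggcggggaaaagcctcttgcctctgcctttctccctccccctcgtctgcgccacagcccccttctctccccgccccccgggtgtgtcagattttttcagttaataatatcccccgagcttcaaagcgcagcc

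Some facts of the arrays bear on all results. Median intensity ran from 55.1 to 60.6 over the arrays of set 1 and from 65.3 to 68.9 in set 2. Over 12889 bright probe sets (mean log2 above 8), same-numbered control arrays of sets 1 and 2 were near-identical. The robust SD of their log2 difference was 0.039 to 0.094, where control arrays of unlike number had 0.287 to 0.374. PAX5 arrays 2 and 3 were also close (0.077, where the other within-group pairs had 0.211 to 0.359). Each such pair was counted as 1 sample, which left 3 EBF1, 2 PAX5 and 3 control samples, so the EBF1 and PAX5 comparisons share their controls. The summed intensity of 10 stromal markers was 2647, 806 and 11796 on EBF1 arrays 1, 2 and 3, against 2204, 562 and 728 on the controls of set 1, so EBF1 array 3 stands apart. The sum was 669, 1682 and 1699 on PAX5 arrays, against 2482, 691 and 995 in set 2. Of those markers 1 was under 50 on every array, and none was listed at 0. Markers of the labelled lymphoid progenitors were present, summing to 10922 to 12501 over 7 genes on EBF1 arrays and 11278 to 17051 on their controls. Of 4 T cell markers, 3 were under 50 on every array. Markers of committed B cells, 6 genes, summed to 26610, 17939 and 10812 on EBF1 arrays, against 338, 265 and 262 on their controls, and to 5493, 4297 and 3989 on PAX5 arrays, against 674, 599 and 617. Gene by gene, their median log2 change was 5.35 with EBF1 and 0.34 with PAX5. At limma adjusted p under 0.05, 5 of the 6 were higher with EBF1 and 1 with PAX5. The sum of 5 myeloid markers was 369 to 717 on EBF1 arrays and 869 to 2155 on their controls, and 979 to 1610 on PAX5 arrays and 1411 to 2633 on theirs. Of the 5, 2 had a log2 change above 0 in each comparison, and the medians were -0.24 with EBF1 and -0.07 with PAX5. The sum of 3 natural killer markers was 134 to 449 on EBF1 arrays and 422 to 867 on their controls, and 1272 to 2162 on PAX5 arrays and 469 to 899 on theirs. Of the 3, 0 had a log2 change above 0 with EBF1 and 2 with PAX5, beside 53.1% and 48.2% of all genes. The part of these shifts in the results below was not tested. Ebf1 transcript read 2093 ± 332 in EBF1 cells and 2116 ± 78.1 in their controls (SD, n = 3 each) at its brightest probe set. The other Ebf1 probe sets had log2 changes of 0.02, -0.03, 0.01 and -0.31 with EBF1, and none passed. The place of these probe sets relative to the mutation and the insert is not given. Pax5 transcript read 1849, 891 and 932 on PAX5 arrays, against 12.8, 8.97 and 7.98 in their controls. These are bulk samples, in which fewer cells of a type and less RNA per cell cannot be told apart.

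No member passed the test in any comparison. The counts at adjusted p under 0.05 were 0 of 21 probe sets with EBF1, 0 with PAX5 and 0 for the EBF1 change minus the PAX5 change, by limma with Benjamini-Hochberg adjustment over all 45037 probe sets. Over the whole table the test called 0.0977% of probe sets with EBF1 (0.0933% higher, 0.00444% lower), 0.515% with PAX5 (0.464% higher, 0.0511% lower) and 1.05% for the difference (0.280% higher, 0.770% lower). Without EBF1 array 3 the calls with EBF1 numbered 597 in place of 44, 1 of them a member. With the replicate number as a block it called 799 in place of 473 probe sets for the difference, and again 0 members. Unadjusted p was under 0.05 with EBF1 for 4 of 21 member probe sets, 1 higher and 3 lower, and for 9.97% of all probe sets (5.53% higher, 4.44% lower). With PAX5 it was so for 1 member probe set, lower, and for 8.51% of all (4.67% higher, 3.84% lower). For the difference it was so for 6, 1 higher and 5 lower, and for 14.7% of all (7.79% higher, 6.88% lower). The median log2 change of the 21 was -0.22 with EBF1, where all probe sets had 0.02, and -0.06 with PAX5, where all had -0.01. For the difference it was -0.06, where all had 0.03. Levels below are linear intensities, read within a probe set only, and changes are of log2(intensity + 16), which understates the change of dim probe sets.

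**Figure D1:**
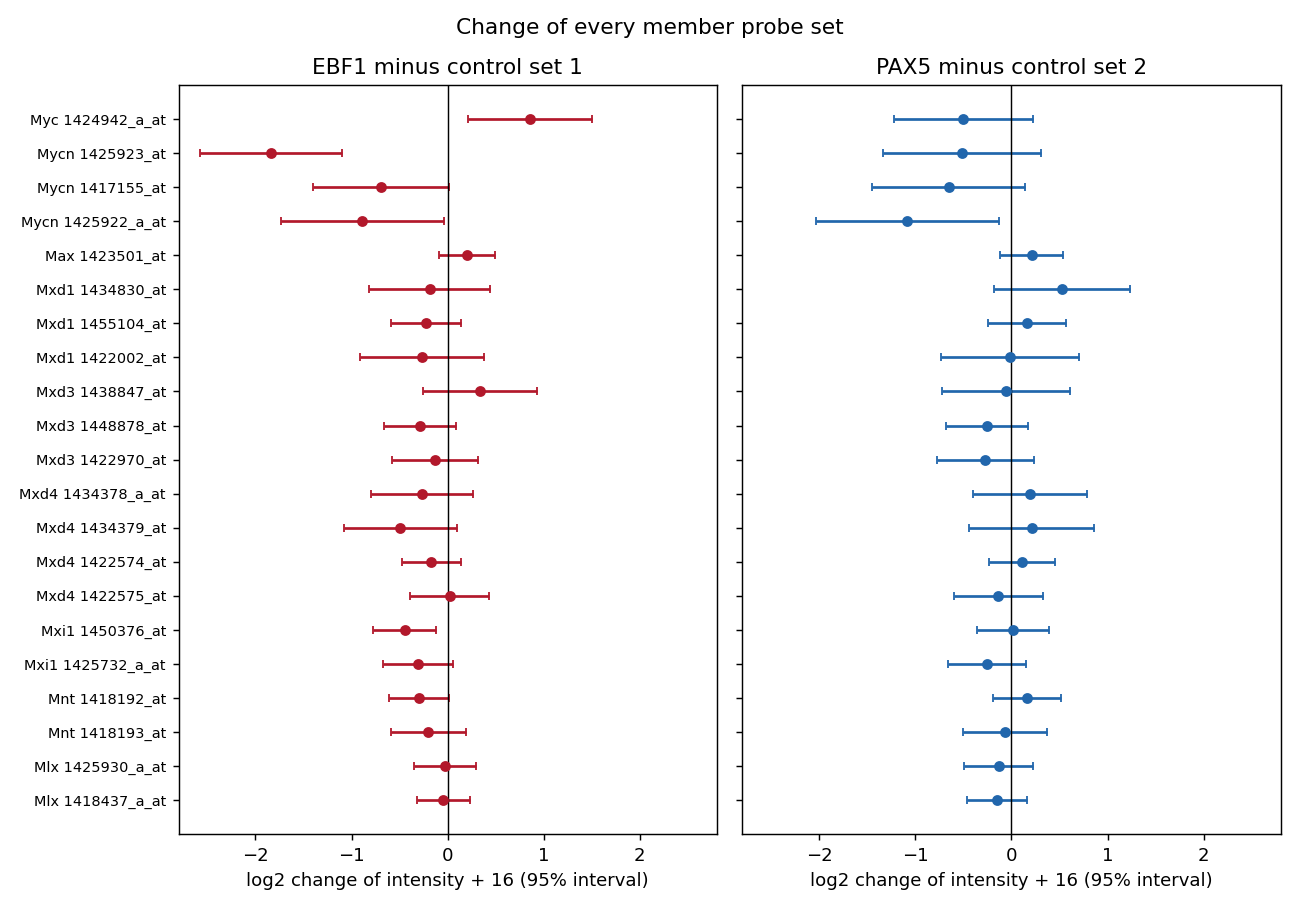
Log2 change of intensity + 16 of all 21 member probe sets (points) with 95% intervals (bars), EBF1 minus control set 1 on the left and PAX5 minus control set 2 on the right. With EBF1 the Myc interval runs from 0.21 to 1.5 and that of Mycn 1425923_at from -2.57 to -1.10, both clear of 0, but none of the 21 passed after adjustment.

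Of the activating members in EBF1 cells, Myc lay above its controls and the brightest Mycn probe set lay below them. Neither passed, and the other Mycn probe sets overlapped their controls. Myc was measured by 1 probe set, 1424942_a_at. It read 2030, 2523 and 1575 on EBF1 arrays 1, 2 and 3, against 695, 1557 and 1227 on the controls of set 1. All EBF1 arrays lay above all control arrays, but the nearest pair, EBF1 array 3 and control array 2, was close (1575 against 1557). No overlap of this kind, higher with EBF1, was found in 7.06% of all probe sets, and among the members in Myc alone. Myc averaged 2043 ± 474 in EBF1 cells and 1159 ± 435 in control cells (SD, n = 3 each), a log2 change of 0.86 (SE 0.28, 95% interval 0.21 to 1.5) with limma adjusted p = 0.36. Over 18 other settings the change ran from 0.53 to 1.11 and was called in 0 of them, and without EBF1 array 3 it was 1.03 (adjusted p = 0.21). Array for array of equal number, the log2 difference was 1.53, 0.69 and 0.36.

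With PAX5, Myc read 727, 905 and 875, against 743, 1566 and 1292 on the controls of set 2. PAX5 arrays 2 and 3 lay below control arrays 2 and 3, whereas PAX5 array 1 was close to control array 1, so the groups overlap. Myc averaged 808 ± 115 in PAX5 cells (SD, n = 2) and 1200 ± 419 in control cells (SD, n = 3), a log2 change of -0.50 (SE 0.32, 95% interval -1.22 to 0.22, limma adjusted p = 0.76). The EBF1 change minus the PAX5 change of Myc was 1.36 (SE 0.32, 95% interval 0.64 to 2.08), with an unadjusted p of 0.0022 and limma adjusted p = 0.097. Over 17 other settings this difference stayed between 1.20 and 1.53, with adjusted p from 0.051 to 0.63, and none of the 17 called it.

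Mycn was the member with the largest log2 change with EBF1, but its 3 probe sets did not behave alike. The brightest, 1425923_at, read 3037, 2003 and 1095 on EBF1 arrays 1, 2 and 3, against 7301, 6064 and 6991 on the controls of set 1. Even the highest EBF1 array lay far below the lowest control array. Such an order, lower with EBF1 and no overlap, was found in 6.14% of all probe sets and in 4 of the 21 of the network: this one, Mxd4 1422574_at, Mxi1 1450376_at and Mnt 1418192_at. Mycn 1425923_at averaged 2045 ± 972 in EBF1 cells and 6785 ± 644 in control cells (SD, n = 3 each). Its log2 change was -1.84 (SE 0.32, 95% interval -2.57 to -1.10), 0.28 times the control level, with an unadjusted p of 0.000351 and limma adjusted p = 0.12. It ranked 134 by p among all probe sets, of which 44 passed.

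The call of Mycn 1425923_at depended on the setting. It passed in 4 of 18 other settings: without EBF1 array 3, at -1.45 (limma adjusted p = 0.025), without EBF1 array 1, at -2.18 (0.043), with all 12 arrays counted separately, at -1.84 (0.021), and with the mean of the 3 Mycn probe sets in its place, at -1.14 (0.037). In the rest it did not pass, with adjusted p up to 0.44. Counting all 12 arrays separately, here and below, treats near-identical arrays as independent samples, so its p-values can be too small.

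The second Mycn probe set, 1417155_at, read 1814, 2507 and 3769 on EBF1 arrays, against 3363, 5756 and 3771 on the controls. Here EBF1 array 3 was at the level of control array 3, and the groups overlap. Its log2 change came to -0.69 (SE 0.31, 95% interval -1.40 to 0.02, limma adjusted p = 0.52). The dimmest, 1425922_a_at, read 144, 195 and 348 on EBF1 arrays, against 241, 588 and 484 on the controls, a change of -0.89 in log2 (SE 0.37, limma adjusted p = 0.49). EBF1 array 3, the lowest of its group at 1425923_at, was the highest of its group at both other probe sets. Over the 8 samples Pearson's r, as a description, was 0.93 between 1417155_at and 1425922_a_at, and 0.18 between 1425923_at and each of them. The sources used here do not give where on the transcript each probe set lies, and which of them reads Mycn best was not tested. EBF1 array 3 also had the highest stromal sum, and the part of that in the Mycn values was not tested.

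Mycn 1425923_at read 5409, 3748 and 3919 on PAX5 arrays, against 7035, 5867 and 6660 on the controls of set 2. The PAX5 arrays all lay lower, an order found in 3 of the 21 (this one, Mycn 1425922_a_at and Mxd3 1448878_at) and in 8.77% of all probe sets. Its log2 change was -0.51 (SE 0.36, limma adjusted p = 0.79). Mycn 1417155_at read 2026, 3552 and 3249 on PAX5 arrays, against 3360, 5604 and 3770 on the controls, a log2 change of -0.65 (SE 0.35, adjusted p = 0.68). The groups overlap there, since PAX5 array 2 exceeded control array 1. Mycn 1425922_a_at read 161, 243 and 258 on PAX5 arrays, against 266, 606 and 541, again without overlap, and the change was -1.08 in log2 (SE 0.42, 95% interval -2.04 to -0.13; limma adjusted p = 0.51). All 3 Mycn probe sets thus had negative changes in both comparisons, which share their controls, and none passed. The EBF1 change minus the PAX5 change was -1.32 (95% interval -2.15 to -0.50, limma adjusted p = 0.14) at 1425923_at, -0.04 (-0.83 to 0.76, 0.98) at 1417155_at and 0.20 (adjusted p = 0.88) at 1425922_a_at.

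**Figure D2:**
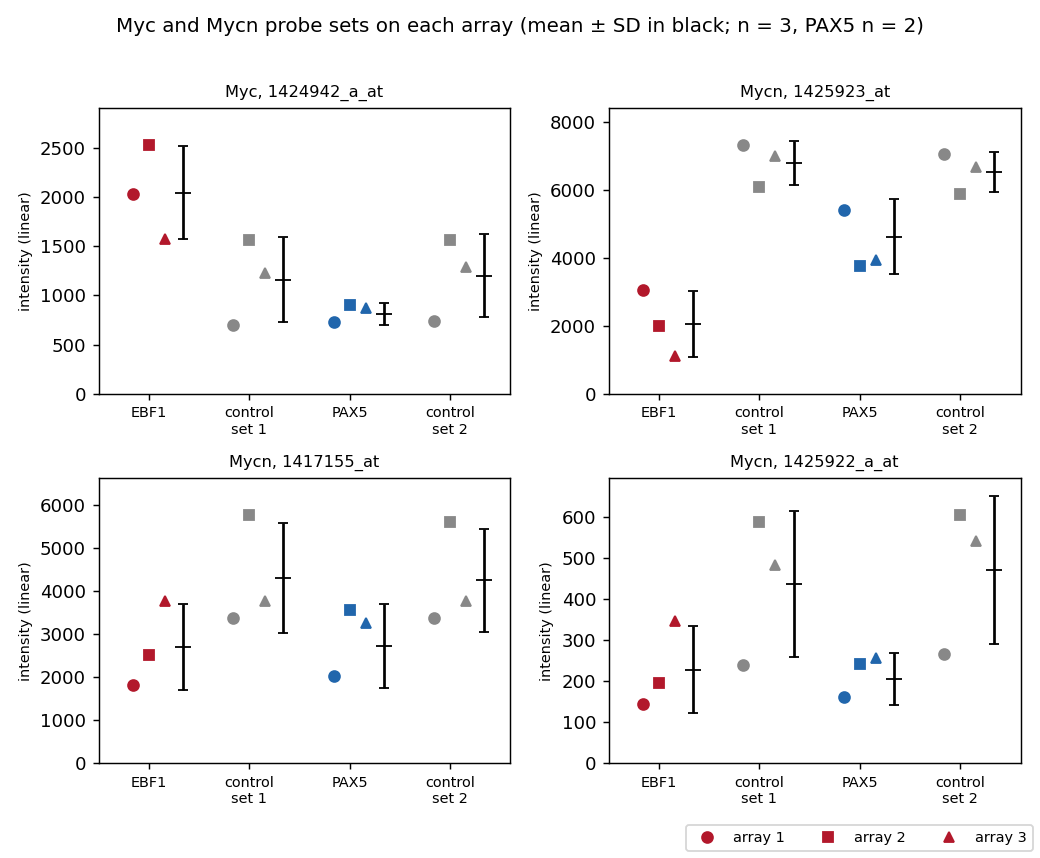
Linear intensity of Myc and of the 3 Mycn probe sets on every array (marker shape gives the array number) in EBF1 cells, control set 1, PAX5 cells and control set 2, with mean ± SD as black bars (n = 3, PAX5 n = 2 with arrays 2 and 3 averaged). Myc lies at 1575 to 2523 in EBF1 cells and 695 to 1557 in their controls, and Mycn 1425923_at at 1095 to 3037 in EBF1 cells and 6064 to 7301 in their controls.

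Max encodes the obligatory partner of MYC and MYCN, and it was measured by 1423501_at. This read 424, 501 and 440 on EBF1 arrays, against 343, 428 and 410 on the controls of set 1, and the groups overlap. On PAX5 arrays it read 507, 500 and 468, against 373, 449 and 459 in set 2, above all controls. Of the 21, it alone had this order with PAX5, as did 8.14% of all probe sets. The log2 change was 0.20 with EBF1 (SE 0.13, 95% interval -0.09 to 0.49, limma adjusted p = 0.66) and 0.21 with PAX5 (SE 0.14, -0.12 to 0.54, 0.78).

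The 5 genes of MAX-binding repressors had no change that passed. Mxi1 encodes an antagonist that competes with MYC for MAX. At 1450376_at it read 943, 1100 and 926 on EBF1 arrays, against 1600, 1265 and 1220 on the controls of set 1. Every EBF1 array lay below every control array. The log2 change was -0.45 (SE 0.15, 95% interval -0.78 to -0.12, limma adjusted p = 0.35), and over 18 other settings it ran from -0.53 to -0.33. PAX5 arrays read 1516, 1306 and 1279, against 1625, 1278 and 1274 in set 2, a log2 change of 0.02 (SE 0.16, 95% interval -0.35 to 0.39). The EBF1 change minus the PAX5 change was -0.46 (SE 0.16, limma adjusted p = 0.24). At the other Mxi1 probe set, 1425732_a_at, the changes were -0.31 with EBF1 and -0.26 with PAX5 (adjusted p = 0.57 and 0.79).

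Mnt encodes a broadly present repressor that opposes MYC. At 1418192_at it read 900, 831 and 945 on EBF1 arrays, against 1264, 1074 and 972 on the controls. The EBF1 arrays all lay below the controls, the closest pair being 945 and 972. Mnt averaged 892 ± 57.3 in EBF1 cells and 1104 ± 148 in control cells (SD, n = 3 each), with a change of -0.30 in log2 (SE 0.14, limma adjusted p = 0.53). PAX5 arrays read 1375, 1165 and 1096, against 1261, 1080 and 1003 in set 2, with a change of 0.17 (SE 0.16, adjusted p = 0.86). The difference of the changes was -0.46 (SE 0.16, limma adjusted p = 0.22). The second Mnt probe set, 1418193_at, lay near the floor of the table, at 1 to 10.4, and carries no usable level.

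Mxd1 and Mxd4 encode repressors linked with cells that leave the cycle. Mxd1 1434830_at read 279, 228 and 145 on EBF1 arrays, against 346, 209 and 193 on the controls, a change of -0.19 in log2 (SE 0.28, limma adjusted p = 0.89). On PAX5 arrays it read 465, 329 and 322, against 375, 222 and 224, a log2 change of 0.52 (SE 0.31, adjusted p = 0.73). Groups overlap in both comparisons, and the difference of the changes was -0.71 (SE 0.31, limma adjusted p = 0.34). The other Mxd1 probe sets had changes of -0.22 and -0.27 with EBF1 and of 0.16 and -0.01 with PAX5. The -0.27 and -0.01 are those of 1422002_at, which lay near the floor of the table, with a mean intensity of 12.9.

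Mxd4 1434378_a_at read 1163, 1045 and 912 on EBF1 arrays, against 1834, 985 and 1070 on the controls. Control array 1 stood high and the groups overlap. The log2 change was -0.26 with EBF1 (SE 0.23, limma adjusted p = 0.78). PAX5 arrays read 1640, 1324 and 1247, against 1848, 997 and 1100, a log2 change of 0.20 (SE 0.26, adjusted p = 0.92). At 1434379_at, where Mxd4 had its lowest change with EBF1, the changes were -0.49 with EBF1 and 0.21 with PAX5 (limma adjusted p = 0.58 and 0.92), and their difference was -0.70 (adjusted p = 0.31). The other Mxd4 probe sets stood at -0.17 and 0.02 with EBF1, and at 0.11 and -0.14 with PAX5. The -0.17 is that of 1422574_at, which read 111, 111 and 105 on EBF1 arrays, against 147, 113 and 115 on the controls. The 0.02 and -0.14 are those of 1422575_at, a dim probe set with a mean intensity of 41.4.

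Mxd3, unlike its relatives, is known from dividing cells. At 1438847_at it read 302, 265 and 210 on EBF1 arrays, against 207, 306 and 123 on the controls, with overlap and a change of 0.34 in log2 (SE 0.26, limma adjusted p = 0.74). PAX5 arrays read 205, 252 and 191, against 229, 318 and 146, a log2 change of -0.05 (SE 0.29, adjusted p = 0.99). Its other probe sets had changes of -0.29 and -0.13 with EBF1, and of -0.26 and -0.27 with PAX5. The Mxd3 probe sets therefore differ in sign with EBF1, and none passed.

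Mlx encodes the MAX-like partner. At 1425930_a_at it read 490, 553 and 397 on EBF1 arrays, against 507, 516 and 435 on the controls, with overlap and a log2 change of -0.03 (limma adjusted p = 0.98). PAX5 arrays read 483, 506 and 448, against 549, 538 and 496, a log2 change of -0.13 (adjusted p = 0.91). The second probe set, 1418437_a_at, stood at -0.05 with EBF1 and -0.15 with PAX5.

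**Figure D3:**
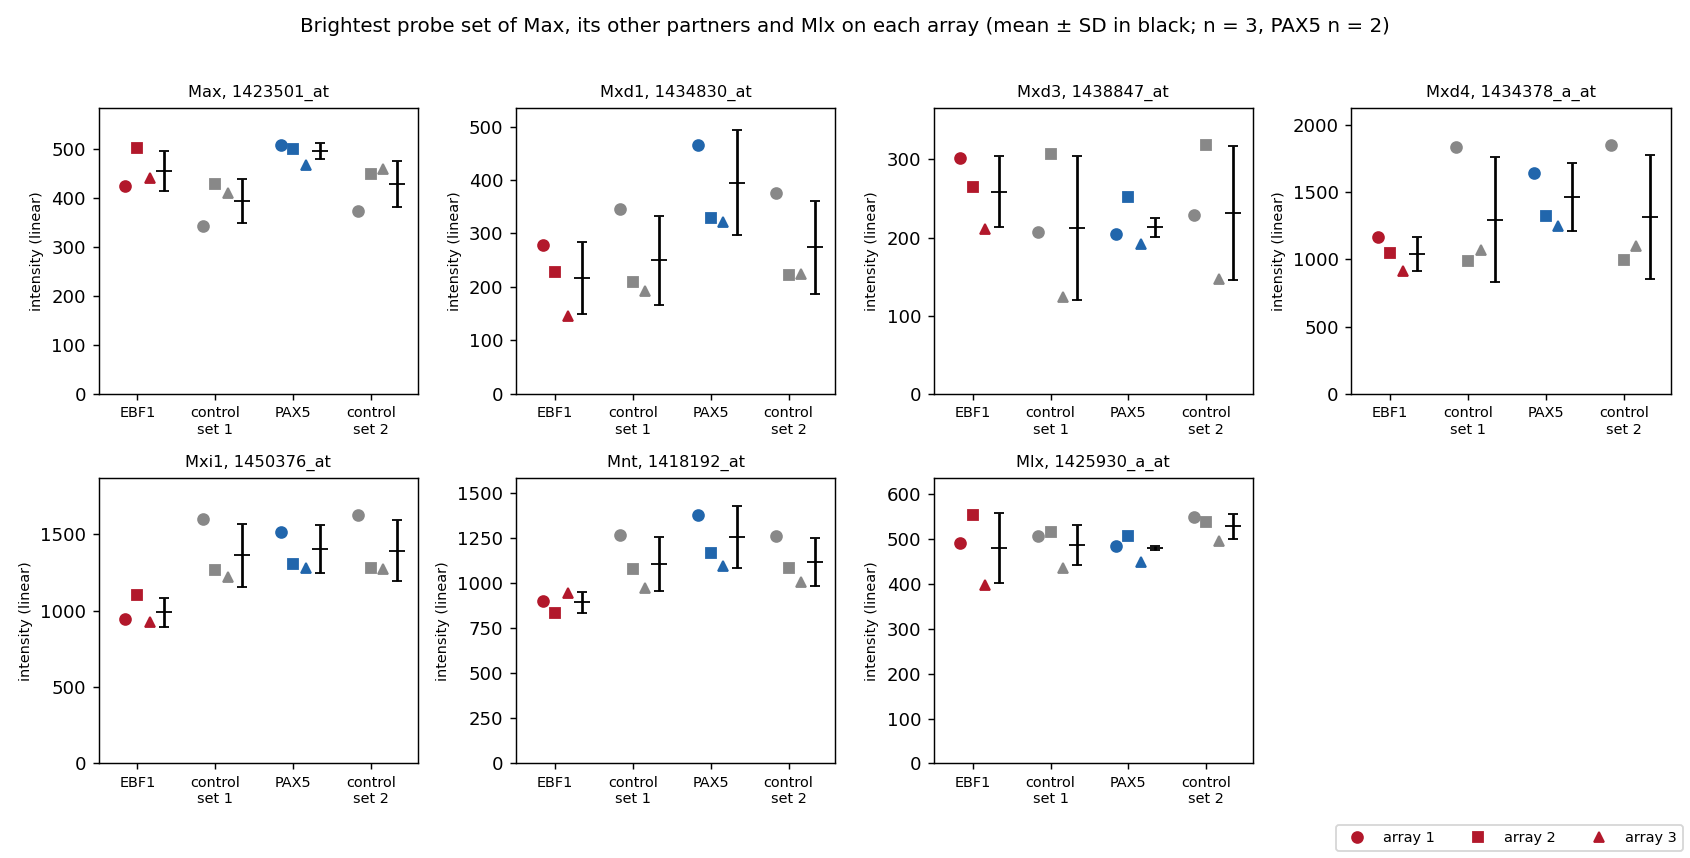
Linear intensity of the brightest probe set of Max, Mxd1, Mxd3, Mxd4, Mxi1, Mnt and Mlx on every array in EBF1 cells, control set 1, PAX5 cells and control set 2, with mean ± SD as black bars (n = 3, PAX5 n = 2). Mxi1 lies at 926 to 1100 in EBF1 cells and 1220 to 1600 in their controls, whereas PAX5 cells, at 1279 to 1516, lie within the range of theirs.

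Counting each of the 9 genes once, by its brightest probe set, the median EBF1 change minus PAX5 change was -0.46, where all 18193 genes had 0.02. Over all 21 member probe sets it was -0.06, so the value depends on which probe sets stand for the genes. Among the repressor genes, the difference at the brightest probe set was negative for Mxi1, Mnt, Mxd1 and Mxd4, and 0.39 for Mxd3. Each change is against the controls of its own set, whose same-numbered arrays were near-identical, and no member difference passed. Over the 8 samples Myc and Mycn 1425923_at had a Pearson r of -0.61, as a description.

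Genes around the network were taken from 7 lists with 102 genes, of which 96 were measured, each by its brightest probe set. Of these, 1 rose and 0 fell with EBF1, where limma called 0.137% of all genes as higher and 0.00550% as lower. With PAX5 1 rose and 0 fell, beside 0.660% and 0.0440%. For the EBF1 change minus the PAX5 change 0 were higher and 4 lower, beside 0.368% and 1.06%. At an unadjusted p under 0.05, 6 were higher and 4 lower with EBF1, beside 6.06% and 5.14% of all genes. With PAX5, 7 were higher and 4 lower, beside 5.16% and 3.89%. For the difference, 21 were higher and 9 lower, beside 8.50% and 8.02%. The lists were chosen with results of these arrays known.

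Among the other network members, Mycl, the remaining MYC family gene, had the log2 change farthest from 0 with EBF1. Mycl 1434777_at read 14.4, 12.7 and 21.4 on EBF1 arrays, against 107, 59.4 and 68.1 on the controls of set 1, and only the EBF1 mean, 16.1, was under 50. The groups do not overlap, and the log2 change was -1.53 (SE 0.25, limma adjusted p = 0.096), which passed without EBF1 array 3 (-1.64, adjusted p = 0.036) and with all 12 arrays counted separately (0.027). PAX5 arrays read 147, 74.0 and 77.1, against 108, 66.1 and 75.2, a log2 change of 0.32 (adjusted p = 0.84). The EBF1 change minus the PAX5 change, -1.85 (SE 0.28), passed with limma adjusted p = 0.022. Without PAX5 array 1 it was -1.43 and did not pass (adjusted p = 0.24), nor did it without EBF1 array 1 or 2 (0.076 and 0.077). The call was also lost with a pseudocount of 64 (-1.05, 0.063) and with all 12 arrays (-1.71, 0.086). Mga, Mlxip and Mlxipl, which complete the list, passed nowhere. Mlxip, a glucose-sensing partner of MLX, stood at -0.13 with EBF1 and 0.50 with PAX5, and Mga, a MAX partner, at -0.07 and -0.03. Mlxipl, another partner of MLX, was under 50 on every array.

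Ribosome assembly genes are among the best known targets of MYC. With EBF1, 0 of 18 passed, the median log2 change was 0.42 and all 18 changes were above 0. All genes had a median of 0.01, and 53.1% of them were above 0. With PAX5, 0 of 18 passed, the median was -0.13 and 1 change was above 0, where 48.2% of all genes were. The 1 was Rrs1 (0.04), Rrp9 was the lowest (-0.32), and both act in ribosome assembly. Polr1b, a subunit of RNA polymerase I, had 0.55 with EBF1 and Npm1, a nucleolar chaperone, had 0.01. For the EBF1 change minus the PAX5 change, 0 passed after adjustment, 8 had an unadjusted p under 0.05, all higher, and the median was 0.51, with Ppan, a ribosome assembly factor, at 0.72 and Npm1 at 0.11. Unadjusted, 8.50% of all genes were higher in that comparison.

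The spread of the controls limits the changes with EBF1 and with PAX5. The median of the EBF1 change minus the PAX5 change ran from 0.37 to 0.64 over 17 other settings. All 18 genes were above 0 in each of them and in the test as reported, where 53.5% of all genes were. But this difference rests on 2 PAX5 samples. The list's median per sample, as log2 difference from the controls, was 0.34, 0.45 and 0.39 in EBF1 samples 1, 2 and 3, -0.28 and -0.01 in PAX5 samples, and -0.36, 0.31 and 0.00 in control samples 1, 2 and 3. Control sample 2 thus came close to the EBF1 samples and control sample 1 lay below both PAX5 samples. Without control 1 the median change with EBF1 was 0.24 and 16 of 18 genes were above 0, and without control 2 it was 0.59. The median with PAX5 was -0.30 without control 1, with 0 of 18 above 0, and -0.02 without control 2, with 8 above 0. Without PAX5 sample 1 it was -0.01, with 9 above 0, and without PAX5 sample 2 it was -0.28, with 0 above 0. Myc followed the same order among controls, with -0.63, 0.47 and 0.16, against 0.87, 1.19 and 0.51 in EBF1 samples and -0.65 and -0.36 in PAX5 samples. Genes of a list share samples, so their common sign is 1 observation per sample.

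**Figure D4:**
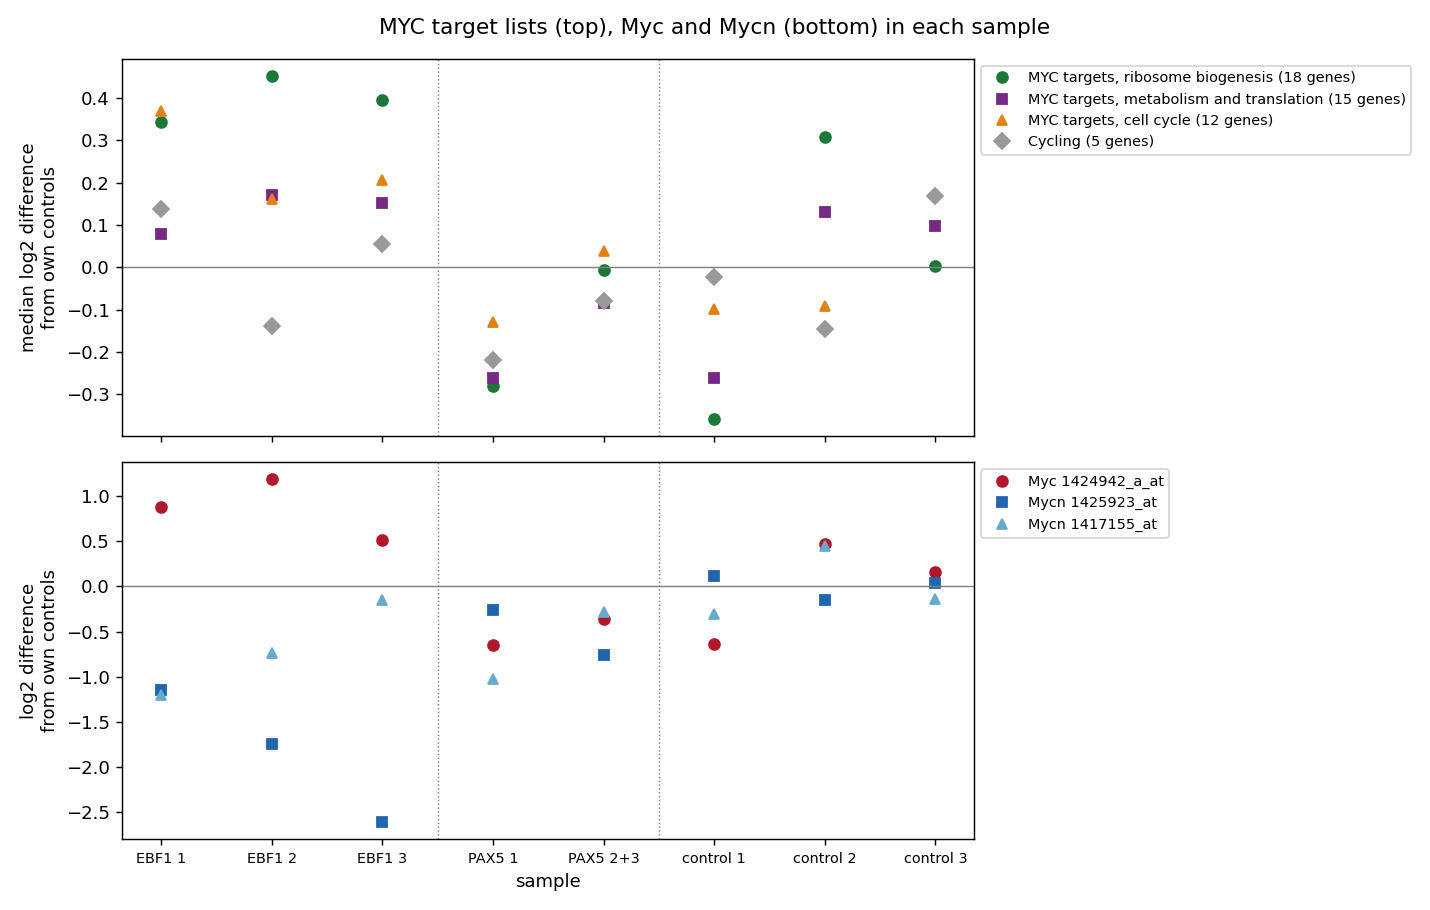
Top, median log2 difference from the controls of the own set for 3 lists of MYC targets and for 5 cycling markers in each of the 8 samples, and bottom, the same difference for Myc and Mycn probe sets. The ribosome list is at 0.34 to 0.45 in EBF1 samples and between -0.36 and 0.31 in control samples.

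The other MYC target lists held no calls either. For metabolism and translation genes 0 of 15 passed in any comparison, with medians of 0.15 with EBF1 and -0.15 with PAX5. Without control 1 the EBF1 median was 0.02, with 8 of 15 above 0. Over the other settings the PAX5 median ran from -0.28, without control 1, to -0.03, without control 2. Srm, which makes spermidine, had 0.62 with EBF1, and Slc7a5, an amino acid transporter, had -0.71 with PAX5. Prps2, an enzyme of nucleotide synthesis, was the opposite extreme, at -0.17 with EBF1 and 0.10 with PAX5. For the difference the median was 0.41, Hk2, a hexokinase, had 0.95 and Prps2 had -0.27. Among cell cycle targets 0 of 12 passed, with medians of 0.28 with EBF1 and -0.07 with PAX5. Over the other settings the medians ran from 0.16 to 0.32 with EBF1 and from -0.14 to 0.04 with PAX5, the last without PAX5 sample 1. E2f2, an activator of S phase genes, had 0.71 with EBF1 and 0.63 with PAX5. Ccne1, a cyclin of S phase entry, was lowest with EBF1 (-0.28), and Ccnd2, a cyclin of the G1 phase, was lowest with PAX5 (-0.31). For the difference Ccnd2 had 0.79 and E2f1, a relative of E2f2, had -0.29. The summed level of 5 cycling markers was 22191 to 26219 on EBF1 arrays and 21667 to 27572 on their controls, and 20740 to 23850 on PAX5 arrays and 21229 to 26748 on theirs. These ranges overlap in both sets.

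Of 21 genes for MYC cofactors and turnover, 0 passed in any comparison, and the medians were -0.02 with EBF1 and -0.10 with PAX5. Over the other settings they ran from -0.04 to 0.04 with EBF1 and from -0.12 to 0.01 with PAX5. Mycbp had 0.38 with EBF1 and Ep400, a chromatin remodeller, had -0.24. Mycbp2, a ubiquitin ligase, had 0.35 with PAX5 and a difference of -0.52, and Ruvbl2, an ATPase of chromatin complexes, had -0.47 and 0.48. Among 11 genes known to be repressed through MYC, 0 passed with EBF1 and 0 with PAX5, with medians of 0.12 and -0.03, the second running from -0.09 to 0.04 over the other settings. Txnip, which restrains glucose uptake, read 1669, 1383 and 1463 on EBF1 arrays, against 3307, 1781 and 2218 on the controls, and 4784, 3437 and 3289 on PAX5 arrays, against 3300, 1790 and 2270. All EBF1 arrays lay below their controls, whereas PAX5 and control arrays overlap, since PAX5 array 3 was just below control array 1. Its changes were -0.65 with EBF1 and 0.75 with PAX5, and the difference of -1.40 (SE 0.26) passed at limma adjusted p = 0.048. With 1 sample left out, that call held without control 1 or 2 and was lost without any other, with differences of -1.65 to -1.14 (adjusted p = 0.070 to 0.50). It was also lost with pseudocounts of 1 (0.11) and 64 (0.065) and with all 12 arrays (0.22). Ndrg1, a stress-response gene of the same list, had 0.75 with EBF1 and -1.66 with PAX5 (limma adjusted p = 0.32), and a difference of 2.41 (limma adjusted p = 0.066). The difference passed without EBF1 array 3 (2.83, 0.019) and with a trend in eBayes (0.049). With the replicate block, which sets the mean of PAX5 arrays 2 and 3 beside control 2 although it stands for both numbers, the PAX5 change (-2.06, adjusted p = 0.046) and the difference (2.82, 0.011) passed.

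The last list holds 15 measured genes that act on Myc in B lineage cells. Foxo1, a transcription factor of early B cells, rose with EBF1. It read 1104, 841 and 343 on EBF1 arrays, against 102, 71.5 and 58.1 on the controls, a change of 2.94 in log2 (SE 0.38, limma adjusted p = 0.040). The call held without EBF1 array 3 but was lost without any other single sample, with changes of 2.60 to 3.12 and adjusted p of 0.072 to 0.195. It was also lost with pseudocounts of 1 (0.099) and 64 (0.18), with the mean of its probe sets (1.80, 0.058) and with each set fitted alone (0.195). With PAX5, Foxo1 was also higher, at 292, 244 and 214, against 126, 87.9 and 76.5 on the controls of set 2. That log2 change, 1.31, did not pass (limma adjusted p = 0.39). Irf4, a factor of pre-B cell differentiation, rose with PAX5. It read 776, 511 and 557 on PAX5 arrays, against 90.1, 52.9 and 120 on the controls, a change of 2.72 in log2 (SE 0.34, limma adjusted p = 0.012). The call was lost without control 1 (2.77, adjusted p = 0.051), PAX5 sample 1 (2.46, 0.21) or PAX5 sample 2, the mean of arrays 2 and 3 (2.99, 0.053). It was also lost with a pseudocount of 1 (0.060) and with each set fitted alone (0.051). With EBF1, Irf4 was also higher, at 229, 141 and 111, against 83.4, 49.0 and 106 on the controls of set 1. That log2 change, 0.88, did not pass (limma adjusted p = 0.38). Irf4 and Irf8, a related factor, had differences that passed, -1.85 (limma adjusted p = 0.047) and -2.59 (0.016). That of Irf8 was lost without PAX5 sample 1 (-2.29, 0.25) or 2 (-2.89, 0.054), and that of Irf4 held without control 2 or EBF1 array 1 and was lost without any other sample (-2.11 to -1.58, 0.061 to 0.49). Both were also lost with a pseudocount of 1 (Irf8 0.054, Irf4 0.12) and with all 12 arrays (0.065 and 0.17). With the replicate block the PAX5 change of Irf8 (1.66, adjusted p = 0.044) and the difference of Foxo1 (1.94, 0.025) passed, which they did not without it, and both rest on the same placing of PAX5 arrays 2 and 3. The first also passed without control 1 (2.22, 0.040), with the mean of its probe sets (0.049) and with all 12 arrays (1.79, 0.030), and the second without EBF1 array 3 (2.11, 0.0062). Stat5b, which carries the interleukin-7 signal, had -0.67 with EBF1 and 0.30 with PAX5 and passed in neither.

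**Figure D5:**
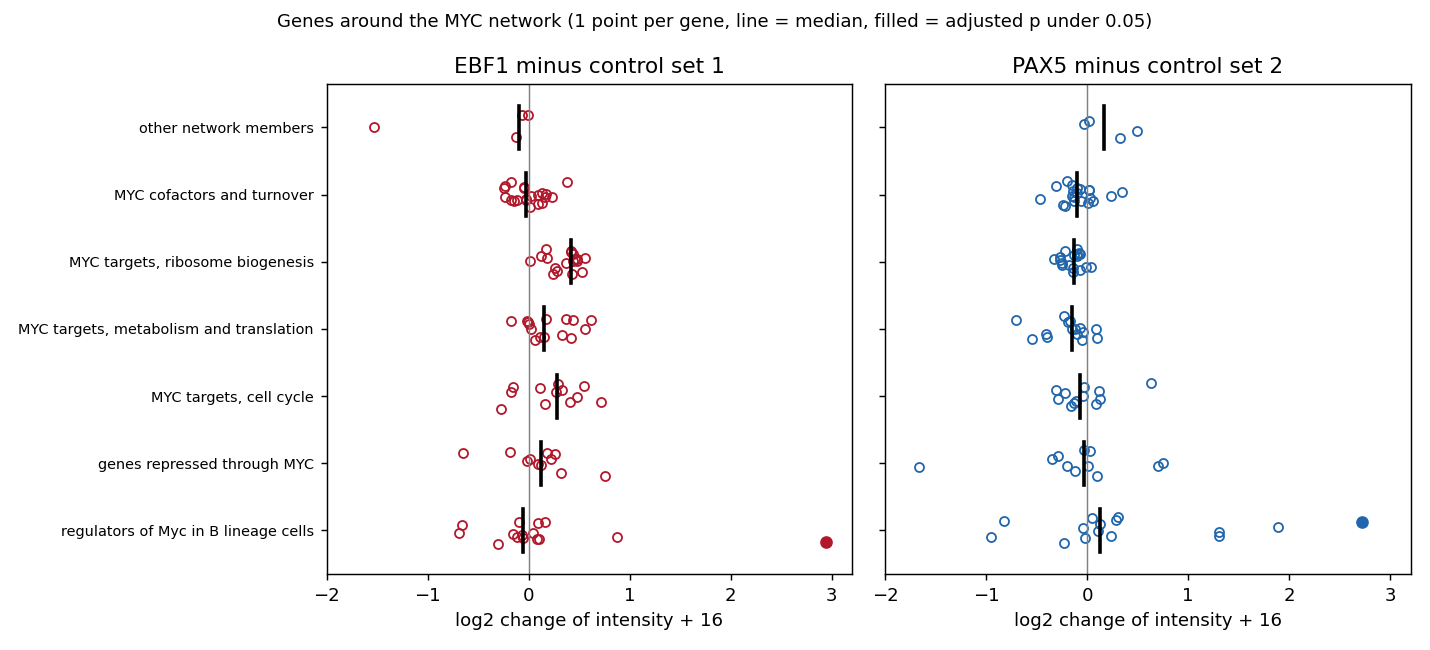
Log2 change of intensity + 16 of each gene in the 7 lists (1 point a gene, black line the median, filled where limma adjusted p was under 0.05), EBF1 minus control set 1 on the left and PAX5 minus control set 2 on the right. Foxo1, at 2.94 with EBF1, and Irf4, at 2.72 with PAX5, are the filled points, and the ribosome list has its median at 0.42 with EBF1 and -0.13 with PAX5.

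The genes whose pattern over the 8 samples was most like that of Myc were sought among 9389 genes with a mean intensity of at least 100, by Pearson's r. They were Foxk2, a forkhead factor, at 0.99, Aqr, a splicing helicase, at 0.98, and Chac1, Mrpl23 and Tedc1 at 0.97. Foxk2 read 745, 823 and 662 on EBF1 arrays, against 490, 734 and 582 on the controls. Those most like Mycn 1425923_at were Vangl2, a planar polarity gene, Qk, an RNA-binding protein gene, and Yipf4 at 0.96, and Ciao2b and Ift172 at 0.94. Vangl2 read 202, 201 and 178 on EBF1 arrays, against 297, 260 and 270 on the controls. With 8 samples and 9389 genes searched, r is given as a description only.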

How the data were processed

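The authors deposited linear intensity values per probe set, 1 column per array, for 45037 probe sets. The sources used here do not say how probes were summarised or arrays normalized, and name no genome build. Symbols came from the platform annotation: 1 symbol for 34945 probe sets, more for 932 and none for 9160; of those with 1 symbol, 34741 were found by Entrez ID among GRCm38.p6 genes.

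From the deposited intensities, log2(intensity + 16) was computed for all probe sets without further normalization or filter. Each set was centred on its own controls per probe set, arrays found near-identical over 12889 bright probe sets (mean log2 above 8) were averaged, and limma 3.58.1 in R 4.3.3 (lmFit, eBayes, 5 residual and 3.68 prior degrees of freedom, read with the data.table package, version 1.17.8) tested EBF1, PAX5 and the difference of their changes, with Benjamini-Hochberg adjustment over all probe sets and a threshold of 0.05. The script was tested on simulated data. The number of arrays limits the precision. Every member probe set is given. List genes were named when they passed (at most 6 with the largest change), and otherwise by the highest and lowest change. Stat5b was named after its values were seen. The members and lists were chosen with earlier results of these data known. Figures used Python 3.11.15, matplotlib 3.10.9 and pandas 2.3.3.

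Deviations from the group means of EBF1 and control arrays of equal number correlated at 0.35, 0.61 and 0.39, so the numbers were taken to pair them. Those of PAX5 and control arrays correlated at 0.41, 0.19 and 0.33, but PAX5 arrays 2 and 3 count as 1 sample, whose number is not settled. The test as reported has no block, so its SEs, intervals and p-values leave this pairing out. With the replicate number as a block, limma adjusted p with EBF1 was 0.23 for Myc and 0.078 for Mycn 1425923_at. The block alternative gave PAX5 sample 1 the number 1 and the mean of arrays 2 and 3 the number 2, so its PAX5 values and differences rest on that choice. Alternatives were pseudocounts of 1 and 64, quantile normalization within a set, a mean intensity of at least 50, 1 value per gene (brightest or mean), all 12 arrays separately, each set alone, a replicate block, a trend in eBayes and leaving out each sample.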

Additional observations from a re-analysis of the deposited data

How the results depend on the processing

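The number of probe sets called over the whole table depended on the settings. With EBF1 it was 44, against 14 with a pseudocount of 64, 295 with all 12 arrays counted separately, 18 with each set fitted alone, and 18 to 597 with 1 sample left out, 597 being without EBF1 array 3. With PAX5 it was 232, against 96 with a pseudocount of 1, 153 with the mean of the probe sets of a gene, 638 with all 12 arrays, 122 with each set alone and 50 to 263 with 1 sample left out, 50 being without PAX5 array 1. For the difference it was 473, against 226 with a pseudocount of 1, 208 with all 12 arrays, 799 with the replicate block and 78 to 874 with 1 sample left out (78 without PAX5 array 1, 874 without EBF1 array 3). Where fewer genes or samples were tested, that is part of the setting, and otherwise the cause was not tested. The replicate block called 65 probe sets with EBF1 and 209 with PAX5, and 0 members in each comparison.

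Of the 21 member probe sets 0 were called. The exception was Mycn 1425923_at with EBF1, the 1 call with the mean of the probe sets of a gene, with all 12 arrays and without EBF1 array 1 or 3 (range 0 to 1 with 1 sample left out). With PAX5 and for the difference it was 0 in every setting run. No called result changed sign. Of the values of single genes under other settings, 2349 kept their side of the threshold, 42 lost a call and 16 gained one. With 2 PAX5 samples, a change of moderate size could go undetected, and probe sets under 50 have little signal over background.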
